A study of Rattus norvegicus with 108 samples.

Results

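The Rab genes of the rat were followed in single-cell or single-nucleus libraries from both ends of the hippocampal dentate gyrus, dorsal (dorDG) and ventral (venDG). Members were all rows of both count tables whose symbol is Rab followed by a digit, which gave 64 of 19127 genes. Of these, 56 encode Rab GTPases and 8 encode regulators or effectors whose symbols meet the same rule (Rab3il1, Rab3ip, Rab3gap2 and Rab11fip1 to Rab11fip5). Rab5a, Rab37, Rab39b and Rab3gap1 were not analysed here. By textbook role, 7 GTPases belong to synaptic and secretory vesicles, 7 to early endosomes, 7 to recycling endosomes, 11 to late endosomes and lysosomes, 12 to the endoplasmic reticulum and Golgi, and 7 to exocytic and ciliary traffic, with 5 others. The early, recycling and late lists together form the 25 endosomal members.

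Rab proteins are small GTPases that mark the membranes of a cell and direct its vesicle traffic. In the GTP-bound form each recruits effectors such as tethers and motors, exchange factors load GTP, activating proteins switch the Rab off, and a dissociation inhibitor carries the inactive form through the cytosol. In neurons, Rab3 proteins sit on synaptic vesicles, whereas Rab5, Rab11 and Rab7 define the early, recycling and late endosomes through which receptors pass.

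The animals were male Long-Evans rats aged 2 months at the start. FT groups drank fluoxetine, a selective serotonin reuptake inhibitor, at 18 mg/kg/day for 6 weeks, and Sham groups drank water for the same time. Each replicate was a pool of several animals, so the spread between replicates is a spread between pools. The groups were dorDG_FT (4 replicates) and dorDG_Sham, venDG_FT and venDG_Sham (5 replicates each), and replicates 1 and 2 of every group were run as more than one 10x 3′ reaction. The files held 570 cells of dorDG_FT (583739 to 885307 unique molecular identifiers, UMIs, per replicate), 719 of dorDG_Sham (490584 to 1105869), 1249 of venDG_FT (657107 to 1523537) and 809 of venDG_Sham (220162 to 1100761). The libraries were uneven in one respect that touches every result. The share of cells with under 2% of their UMIs from cytosolic ribosomal protein genes (ribosome-poor cells) was 22.8% ± 13.2 (SD, n = 4) in dorDG_FT, 50.4% ± 14.4 in dorDG_Sham, 29.3% ± 14.3 in venDG_FT and 39.6% ± 17.1 in venDG_Sham (SD, n = 5 each). Barcodes found in more than 1 reaction numbered 3 among dorDG cells, 5 among venDG cells and 9 among all cells of both regions.

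Cell types of dorDG were those of the deposited annotation, checked against defining markers on pooled UMIs per 10000. Oligodend1 and Oligodend2 held Mog, a myelin gene, at 23.2 and 15.3, Microglia1 and Microglia2 held Csf1r at 9.78 and 13.1, OPC held Pdgfra at 5.15, Endothelial held Flt1 at 19.5, and AstroSub1 and BergGlia held Aqp4 at 10.6 and 10.3. Some annotated types went against their names. InhibNeuron held the inhibitory markers Gad1 at 0.30 and Gad2 at 0.22 and Slc32a1 at 0, but the excitatory marker Slc17a7 at 3.21. Mossy held Calb2 and Drd2 at 0 and the vascular genes Flt1 at 15.9, Vtn at 7.89 and Rgs5 at 4.43, and it is written Mossy-annotated below. Granule held C1ql2 at 0.02 and the haemoglobin gene Hbb at 387. C1ql2 comes from a list of 6 granule markers, of which the others are not given here. InhibNeuron, ExcitNeuron and Granule all carried Syt1, a synaptic vesicle gene, at 11 or more, and they are described together as neurons. In venDG, where no annotation was used, 22 of 30 clusters were named from the same markers and 408 cells (19.8%) stayed unnamed.

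Levels are given as UMIs per 10000 UMIs of the same cells. A 3′ library gives about 1 UMI per captured transcript whatever the length of the gene, but capture differs between genes, so levels of different genes are compared loosely. Members summed to 27.8 in dorDG_Sham, 26.9 in dorDG_FT, 27.5 in venDG_Sham and 28.4 in venDG_FT. At a group mean of 0.5 or more stood 20, 17, 19 and 19 of the 64 members in the same order, and Rab17, an epithelial member, was at 0 in dorDG. Members of the endoplasmic reticulum and Golgi held 21.0% of all member UMIs in dorDG_Sham. Of these, the Golgi gene Rab6a stood highest at 1.53 ± 0.177 (SD, n = 5), followed by Rab1 and then by Rab2a at 0.567 ± 0.151. Early endosome members held 17.0%, exocytic and ciliary members 15.9%, late endosome members 14.7%, synaptic members 9.35% and recycling members 7.23%. The highest of the late endosome list was Rab7a at 1.70 ± 0.222 and of the exocytic list Rab10 at 1.68 ± 0.306. Rab14 of the recycling list reached 0.262 ± 0.0828.

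Single Rab genes set cell classes of the dentate gyrus apart, most clearly Rab20 in microglia and Rab33a in oligodendrocytes. Genes outside the family were not compared in this way. Rab20 and Rab33a were also lower, in 8 of 8 replicates, in the second of the paired reactions described below. Most cells of the second reactions were ribosome-poor. Rab20 averaged 0.047 there against 0.700 in the first reactions, and Rab33a 0.168 against 0.515. Whether this enters their class differences was not tested. Classes were compared over replicates with at least 5 cells, and no test was run because the classes were made from the same cells and genes. Of the 64 members, 36 reached 0.5 in at least 1 dorDG class. Neurons were the highest class for 9 of these, oligodendrocytes and endothelial cells for 7 each, astrocytes and oligodendrocyte precursors (OPC) for 6 each, and microglia for 1. Among ribosome-poor cells alone, neurons were highest for 0 of 41 members and oligodendrocytes for 6. Some classes held few such cells, as among the 180 Endothelial cells, of which 7.2% were ribosome-poor, so their means are less certain. For 29 of the 34 members compared in both regions the highest class was the same in venDG. Rab33a, Rab4b and Rab26, named below, were chosen after their values were seen.

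**Figure D1:**
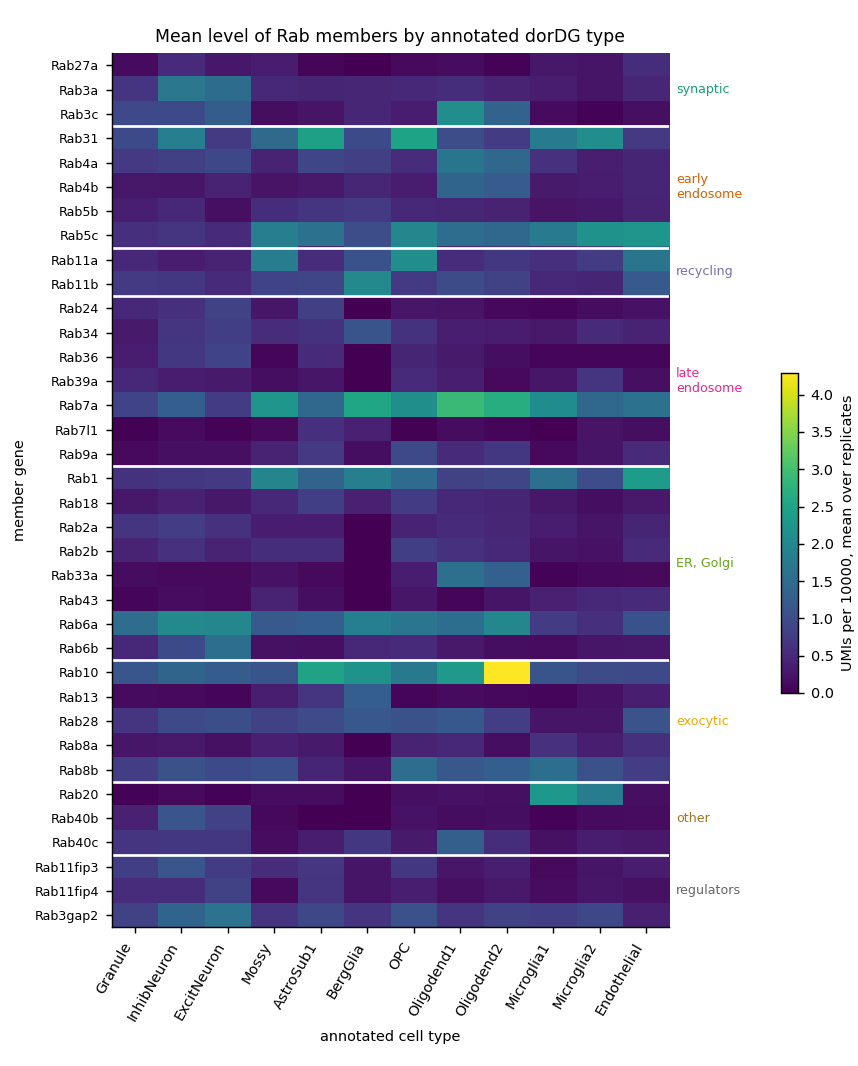
Mean level in UMIs per 10000 over replicates (colour scale) of the 36 members that reached 0.5 in at least 1 dorDG class, by annotated type (columns), with members (rows) grouped by role. Rab20 stands out in the microglial columns, Rab33a and Rab4b in the oligodendrocyte columns, and the brightest field is Rab10 in Oligodend2 at 4.29.

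Rab20, a GTPase linked to phagosomes and to the response of macrophages, was the member bound most closely to one class. In dorDG microglia it ran from 1.29 through a median of 2.30 to 3.52 (mean 2.19 ± 0.669, SD, n = 9). No replicate of another class exceeded 0.572, so microglia stood clear of every other class. In venDG, microglia-like cells held 1.89 ± 0.644 (n = 10) and the other classes averaged at most 0.192, again with no overlap. The promoter window of Rab20 is shown because this member stands alone in its class. RefSeq places it at chr16:84721177-84721476 of build GRCr8 on the plus strand, from 250 bases before to 50 bases after the start of the gene. Capitals mark the GC box GGGCGG (2 matches), the ETS-type core GAGGAA (2 matches) and the E-box CACGTG (1 match), read on both strands.
Rab20: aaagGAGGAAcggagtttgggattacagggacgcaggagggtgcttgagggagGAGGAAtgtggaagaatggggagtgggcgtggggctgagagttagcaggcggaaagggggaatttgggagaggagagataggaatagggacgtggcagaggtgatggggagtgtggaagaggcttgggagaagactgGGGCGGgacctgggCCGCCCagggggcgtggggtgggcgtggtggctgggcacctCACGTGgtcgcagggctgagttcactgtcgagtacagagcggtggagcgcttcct

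Oligodendrocytes were the highest class for a mixed set of Golgi, endosomal and exocytic members. Rab33a, a Golgi member, ran from 0.831 through 1.43 to 2.12 in dorDG oligodendrocytes (mean 1.43 ± 0.410, SD, n = 9). The next class, precursors, averaged 0.335 ± 0.283 and reached 0.772 at most, so the classes did not overlap. In venDG, Rab33a averaged 1.78 ± 0.440 (n = 10) and the next class 0.366, also with no overlap. Rab4b, of early endosomal recycling, averaged 1.26 ± 0.371 in dorDG and 1.52 ± 0.469 in venDG oligodendrocytes, against 0.448 and 0.503 in the next class, with no overlap in venDG. Oligodendrocytes were also the highest class for Rab7a (2.85 ± 0.462), which drives late endosome to lysosome transport, for Rab10 (3.27 ± 0.752), which acts in exocytosis, and for Rab4a (1.5 ± 0.482). Neurons were the lowest class for Rab7a at 1.05 in both regions. Within the lineage, Rab10 averaged 2.31 ± 0.760 in Oligodend1 and 4.29 ± 1.23 in Oligodend2, with overlapping replicates, and ribosome-poor cells made up 50.3% and 12.6% of these types.

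Among the synaptic members, Rab3a and Rab26 were highest in neurons and Rab3c in oligodendrocytes of dorDG. Rab27a (0.554, from 38 UMIs) and Rab3d (0.331, from 21 UMIs), both of regulated secretion, were highest there in endothelial cells. Rab3b was highest in astrocytes (0.273, from 8 UMIs) and Rab27b in precursors (0.274, from 9 UMIs). In venDG these 4 averaged highest in neurons. The dorDG order of Rab3b and Rab27b, and its change between regions, thus rest on few counts. Rab3a, the main Rab of synaptic vesicles, ran in dorDG neurons from 0.368 through 1.22 to 3.55 (mean 1.63 ± 1.17, SD, n = 9). Every other class averaged 0.308 to 0.497, and its replicates overlapped the low end of the neurons. Rab3c, another Rab3 protein of secretory vesicles, had its highest dorDG level in oligodendrocytes, from 0.812 through 1.90 to 2.42 (mean 1.79 ± 0.609). Neurons followed at 0.830 ± 0.525 with overlap, and the remaining classes averaged at most 0.324. In venDG, oligodendrocyte-like cells held 1.41 ± 0.465 and neurons 1.22 ± 0.509, which do not differ beyond their spread. Syt1 as a measure of neuronal transcripts stood at 2.37 and 1.96 in Oligodend1 and Oligodend2. Rab3c thus made up 70.8% of the synaptic UMIs of dorDG oligodendrocytes, while in dorDG neurons Rab3a made up 39.2%, Rab3c 26.8% and Rab26 14.2%. Rab26, which links synaptic vesicles to autophagy, reached 0.482 in dorDG neurons and 1.19 ± 0.608 in venDG neurons.

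The promoter windows of these Rab3 genes are printed since they were highest in different classes, and, further on, moved in opposite directions between reactions. RefSeq (GRCr8) places the Rab3a window at chr16:18722224-18722523 and the Rab3c window at chr2:43575894-43576193, both on the minus strand and both read 5′ to 3′ along the gene. Capitals mark GC boxes, of which the Rab3a window holds 2 and the Rab3c window 1.
Rab3a: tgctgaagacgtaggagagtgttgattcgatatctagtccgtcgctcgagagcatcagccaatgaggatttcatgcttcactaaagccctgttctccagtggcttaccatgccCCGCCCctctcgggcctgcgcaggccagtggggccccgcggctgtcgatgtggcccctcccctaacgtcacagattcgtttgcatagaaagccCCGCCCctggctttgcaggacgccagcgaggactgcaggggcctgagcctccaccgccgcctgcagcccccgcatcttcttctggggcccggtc
Rab3c: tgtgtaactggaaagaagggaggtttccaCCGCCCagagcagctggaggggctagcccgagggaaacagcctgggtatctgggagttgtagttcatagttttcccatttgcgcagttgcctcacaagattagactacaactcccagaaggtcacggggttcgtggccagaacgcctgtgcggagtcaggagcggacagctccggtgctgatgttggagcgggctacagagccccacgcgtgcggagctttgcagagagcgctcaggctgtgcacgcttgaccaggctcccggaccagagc

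Windows of 51 members were in the RefSeq table. A GC box (GGGCGG, on either strand) stood in 39 of the 51 (76.5%), against 33.1% of all 33469 windows of the same length. GAGGAA stood in 12 (23.5%, against 27.6% of all), CACGTG in 4 (7.8%, against 6.4%) and the cyclic AMP response element TGACGTCA in 2 (3.9%, against 1.8%). The median number of CpG dinucleotides was 21 in member windows and 7 in all windows. The member windows were taken once per symbol, and all members with a listed gene type are protein-coding. The set of all windows was limited in neither way, so the sets are unlike. Whether these contrasts are particular to Rab genes was not tested. These are letter matches and not measured binding sites.

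Endosomal members followed another order. Rab11a, of recycling endosomes, averaged 2.1 ± 0.819 in dorDG precursors, 1.65 in endothelial cells and 0.399 in neurons, and 2.26, 2.03 and 0.256 in the same venDG classes. Rab5c, an early endosome GTPase, was highest in endothelial cells at 2.26 in dorDG and 2.45 in venDG, with neurons lowest at 0.700 and 0.535. These classes also differed in ribosome-poor cells. In dorDG such cells made up 79.0% of Granule, 79.6% of InhibNeuron and 78.2% of ExcitNeuron, but 27.6% of OPC and 7.2% of Endothelial. Neurons were the highest dorDG class for 8 of 34 members among cells with 2% or more of ribosomal UMIs. Among ribosome-poor cells they were highest for 0 of 41. How far this share enters the order of the classes was not tested beyond these counts. Rab31, which acts between Golgi and early endosomes, averaged 2.49 in precursors and 2.28 in astrocytes of dorDG, against 0.711 in endothelial cells, but in venDG it was highest in microglia-like cells (2.11), with 1.95 in precursors, 1.93 in astrocytes and 0.641 in endothelial cells. Rab11b varied less, from 0.47 in microglia to 1.21 in endothelial cells. Over all cells, the neuronal side of the family held Golgi and less studied members instead. Among ribosome-poor dorDG cells alone, no member at 0.5 or more was highest in neurons. Rab6b, Rab40b, Rab36 and Rab11fip3 were also higher in the second of the paired reactions described below, in 8 of 8 replicates. Rab6b, the neuronal form of the Golgi Rab6, averaged 1.06 ± 0.434 in dorDG and 1.48 ± 0.442 in venDG neurons, Rab40b 0.925 ± 0.326 and 0.782, and Rab36 0.598 and 0.735. Among the effectors, Rab11fip3 averaged 1.07 ± 0.259 in dorDG neurons and 1.27 ± 0.257 in venDG neurons, the latter with no overlap with the next class at 0.529.

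**Figure D2:**
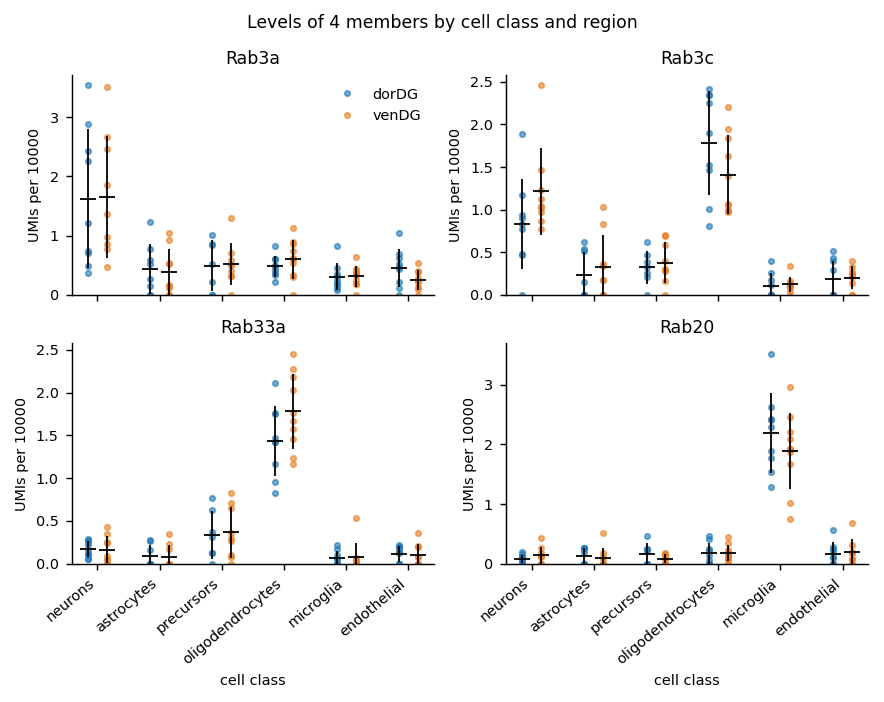
Levels in UMIs per 10000 of Rab3a, Rab3c, Rab33a and Rab20 in 6 cell classes of dorDG and venDG, 1 point per replicate with at least 5 cells, with the mean and SD in black. In dorDG, microglial Rab20 and oligodendrocyte Rab33a lie above all points of the other classes, while neuronal Rab3a spreads from 0.368 to 3.55.

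Summed by role, neurons had the highest mean synaptic and the lowest mean endosomal level in dorDG. Synaptic members summed to 3.59 ± 1.41 (SD, n = 9) in neurons, 2.49 ± 0.680 in oligodendrocytes and 0.723 in microglia. Endosomal members summed to 9.28 ± 1.30 in neurons and 15 ± 2.99 in precursors, with the other classes from 9.85 to 13.1. The log2 ratio of synaptic to endosomal level was −1.46 ± 0.60 in neurons, −2.40 ± 0.40 in oligodendrocytes and −3.94 ± 0.84 in microglia. Neurons exceeded the other cells of the same replicate by 1.47 ± 0.59 on this log2 scale in dorDG (n = 9) and by 1.92 ± 0.38 in venDG (n = 9). Without Rab3a the dorDG difference was 1.01, and the dorDG synaptic sum was then 2.0 in oligodendrocytes and 1.97 in neurons, so the order of these classes rested on Rab3a. In venDG, microglia-like cells (9.74) lay below neurons (10.0) in the endosomal sum. The dorDG difference in log2 ratio between neurons and other cells was 0.16 (n = 8) among ribosome-poor cells. It was 2.05 (n = 6) among cells with 2% or more of ribosomal UMIs (ribosome-rich cells).

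**Figure D3:**
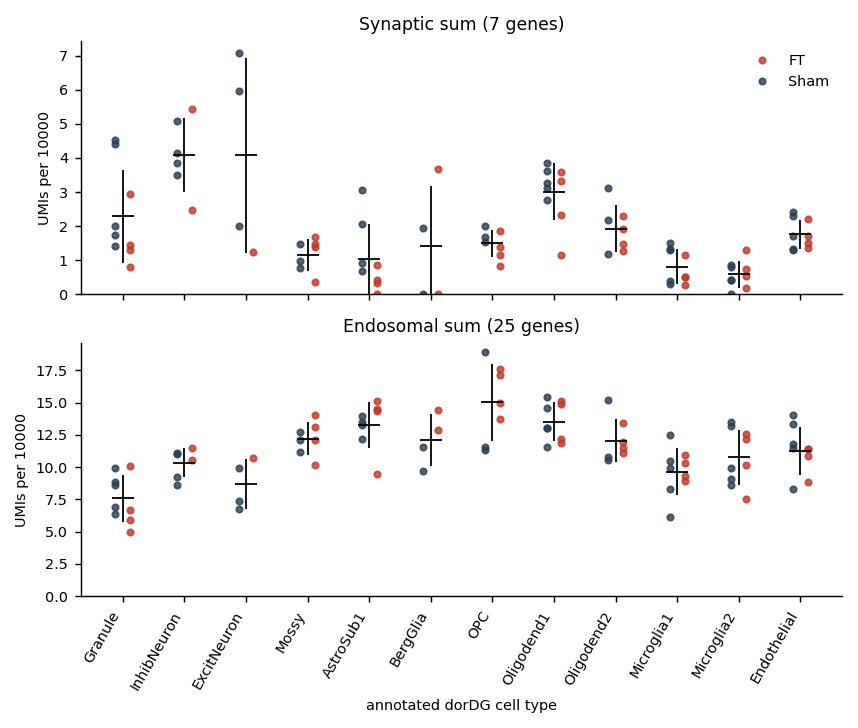
Summed levels in UMIs per 10000 of the 7 synaptic members (top) and the 25 endosomal members (bottom) in each annotated dorDG type, 1 point per replicate with at least 5 cells, FT and Sham apart, with the mean and SD over both in black. The synaptic sum is highest on average in InhibNeuron, ExcitNeuron and Oligodend1, and the endosomal sum is highest in OPC at 15 ± 2.99.

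Paired reactions of one tissue pool differed in most members that could be tested. In the 8 replicates with a pair of reactions, the first reaction held 4.1% to 15.5% ribosome-poor cells and the second 78% to 96%. The labels call the material nuclei, whereas the study's methods describe a whole-cell suspension from one portion of tissue and nuclei from an aliquot, and neither source says which reaction held which. In an edgeR quasi-likelihood fit with the replicate as a block, a gene counted as called when its Benjamini-Hochberg p reached 0.2 or less and its log2 fold change passed 0.32 in either direction. Of 19 members tested, 15 were called, 7 higher and 8 lower in the second reaction, where 84.1% of all 4378 genes tested were called (44.2% higher, 39.9% lower). The share of members called and its split by direction were therefore near those of all genes. The members that went each way are described below and set the family apart in neither respect.

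Of the 8 endosomal members tested, 4 fell in the second reaction (Rab11a, Rab7a, Rab5c and Rab11b) and 2 rose (Rab24 and Rab31). Rab11a ran from 0.866 to 1.74 in the first reactions and from 0.165 to 0.621 in the second. The reactions did not overlap, and the difference was −2.17 ± 0.20 (log2 fold change ± SE, adjusted p = 1.57e-07). Rab7a fell from 2.09 ± 0.289 to 0.784 ± 0.219 (SD, n = 8), a change of −1.89 ± 0.18, also without overlap. Rab5c (−1.56 ± 0.22), Rab1 (−1.53 ± 0.20), which acts from endoplasmic reticulum to Golgi, and Rab11b (−1.04 ± 0.20) fell with them. Rab10 (−0.69) and Rab8b (−0.57) fell by less and were not called when libraries were scaled by total UMIs (−0.22 and −0.10).

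Rab24, an atypical Rab of late endosomes and autophagy, ran from 0.0245 to 0.565 in the first reactions and from 0.818 to 1.42 in the second. It was higher in the second reaction of 8 of 8 replicates, by 2.23 ± 0.30 on the log2 scale. Rab11fip3 (1.37 ± 0.25), Rab40c (0.69), Rab6b (0.65), Rab31 (0.56 ± 0.15) and Rab3gap2 (0.39), a subunit of the Rab3 GTPase-activating complex, were also called higher. Rab6a, Rab4a, Rab28 and Rab34 were not called. Of the 19, 5 members (Rab11a, Rab7a, Rab31, Rab11fip3 and Rab24) did not overlap between reactions, against 45.6% of all genes tested. With total UMIs in place of TMM scaling the median log2 change of all genes was 0.60 in place of 0.13, and 17 members were called, 11 higher and 6 lower, against 2430 genes higher and 1447 lower.

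The Rab3 pair parted between the reactions. Rab3a averaged 0.898 ± 0.356 in the first and 0.401 ± 0.389 in the second reaction (SD, n = 8), and it was lower in the second in 7 of 8 replicates (−1.84 ± 0.33, adjusted p = 1.19e-04). Rab3c averaged 0.529 ± 0.150 and 1.26 ± 0.706 and was higher in the second in 8 of 8 (0.73 ± 0.27, adjusted p = 0.0221). Within neurons of the 6 replicates with enough cells, Rab3a ran from 1.36 to 6.30 in the first reactions and from 0 to 1.21 in the second, with no overlap. The neuronal change was −3.29 ± 0.41 (adjusted p = 5.64e-07), while Rab3c changed by 1.17 ± 0.41 in the same cells, where 51.3% of genes were called. Within oligodendrocytes Rab3c was not called (−0.58 ± 0.59, 3 replicates, with mean levels of 1.77 and 2.32 per 10000 in the first and second reaction).

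**Figure D4:**
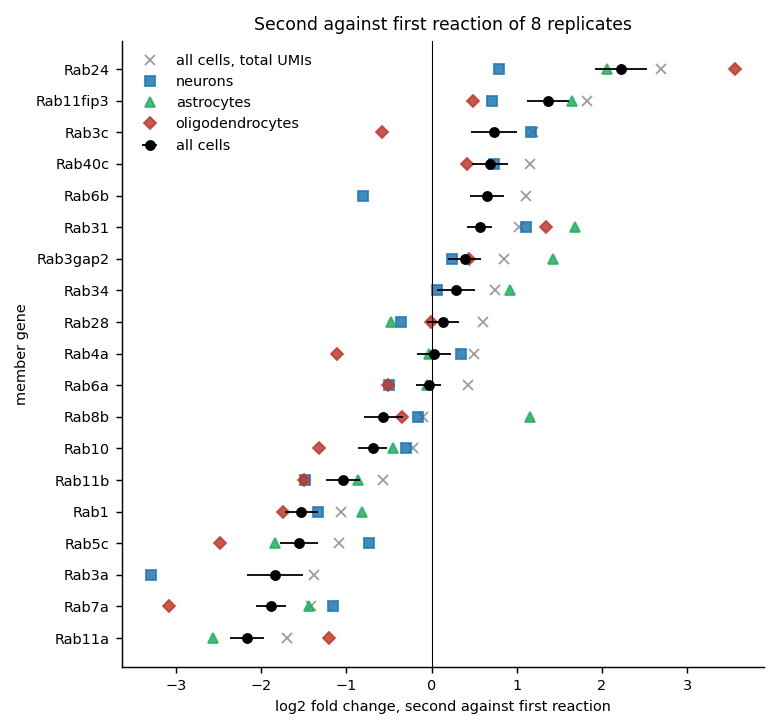
Log2 fold change of the 19 tested members between the second and first reaction of 8 replicates (black, ± SE, edgeR), with the values under total UMI scaling (grey crosses) and within neurons, astrocytes and oligodendrocytes (coloured, where tested). Rab24 lies farthest to the right at 2.23 and Rab11a farthest to the left at −2.17 in the fit over all cells, and neuronal Rab3a lies at −3.29.

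The reactions were also compared within cell classes, a comparison added after the data were seen. In oligodendrocytes 11 of 22 members were called, 2 higher and 9 lower, against 46.7% of genes (15% higher, 31.8% lower). In astrocytes 10 of 23 were called, 6 higher and 4 lower, against 67.7% of genes (40.6% and 27.0%). In neurons 14 of 23 were called, 5 higher and 9 lower, against 51.3% of genes (26.1% and 25.2%). Microglia gave 6 of 13, 1 higher and 5 lower, against 46.3% of genes (14.1% and 32.3%), and endothelial cells 5 of 14, all lower, against 44.0% of genes (22.8% and 21.2%). Rab7a fell from 3.05 to 0.634 in oligodendrocytes and was called in astrocytes, neurons and microglia too. Rab31 rose from 1.32 to 5.05 in astrocytes (1.69 ± 0.49). Rab24 rose from 0.0396 to 1.06 in oligodendrocytes, where the first reactions held 2 UMIs. Rab6b went the other way in neurons, from 1.57 to 0.891 (−0.80 ± 0.34).

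Of 45 genes that act on Rab proteins and were tested between reactions, 32 were called higher and 7 lower, where 44.2% of all genes tested were called higher and 39.9% lower. Effectors gave 10 higher and 2 lower of 15, exchange factors 12 and 2 of 14, activating proteins 10 and 0 of 12, and genes of prenylation and GDP dissociation 0 and 3 of 4. The largest changes were those of Rims1 (1.87 ± 0.22, from 1.07 to 5.43), a Rab3 effector of the presynaptic active zone, Hps4 (1.58), a subunit of an exchange factor for lysosome-related organelles, Rims2 (1.49) and Sgsm1 (1.46).

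Fluoxetine was compared with Sham on the summed counts of each replicate, where fewer cells of a type and less RNA per cell cannot be told apart. In dorDG, 3 of 18 members tested were called, against 28.6% of all 4274 genes tested (12.4% higher, 16.1% lower). The share of members called was below that background, and none of the 18 separated the groups, against 8.21% of genes. Without the filter on low values, 1 member of 63 did, against 4.12% of genes, and none was called (1.09% of genes). That member was Rab9a, of late endosome to Golgi transport, at 0.457 to 0.655 in dorDG_FT and 0.245 to 0.415 in dorDG_Sham, a change of 0.80 ± 0.27 (adjusted p = 0.245). The median log2 change was 0.17 over the members and −0.04 over all genes tested. Among the 7 endosomal members tested, 1 was called higher and none lower.

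Rab3c was called lower in dorDG_FT. Its levels were 0.58, 0.63, 0.44 and 0.46 in dorDG_FT and 1.24, 0.45, 1.06, 0.71 and 1.0 in dorDG_Sham. All FT replicates lay low, but Sham replicate 2 lay among them. The change was −0.66 ± 0.26 (log2 ± SE, edgeR, Benjamini-Hochberg adjusted p = 0.172). Rab3a in the same fit changed by −0.02 ± 0.44.

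Rab3gap2 stood at 0.73, 0.76, 0.52 and 0.65 in dorDG_FT and at 0.92, 0.78, 1.88, 0.74 and 1.05 in dorDG_Sham, a change of −0.58 ± 0.27 (adjusted p = 0.190). Sham replicate 3 was far above the rest, and the groups overlapped. Rab5c stood at 1.56, 1.66, 1.58 and 1.82 in dorDG_FT and at 1.28, 1.07, 0.88, 1.56 and 1.54 in dorDG_Sham, a change of 0.47 ± 0.21 (adjusted p = 0.189). The highest Sham replicate reached the lowest FT replicate.

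These members were also ones that differed between reactions, and the groups differed in the same respect. Ribosome-poor cells made up 14.1% to 42.1% of dorDG_FT and 31.9% to 71.0% of dorDG_Sham replicates. Neuronal markers (5 genes measured) summed to 7.77 ± 2.34 in dorDG_FT (4.91 to 10.2) and 15.5 ± 7.06 in dorDG_Sham (6.29 to 25.6), granule cell markers to 2.72 ± 0.35 and 4.98 ± 1.67, and mural markers to 4.98 ± 1.83 and 1.95 ± 1.24. In ribosome-rich cells alone the changes were −0.33 for Rab3c, −0.21 for Rab3gap2 and −0.00 for Rab5c, and in ribosome-poor cells −0.36, −0.18 and 1.01. None was called in either. No member was called with the replicate number as a block or without any one of FT replicates 1, 4 and 5 or Sham replicates 1, 3 and 5, while 1 was called without FT replicate 2, 6 without Sham replicate 2 and 4 without Sham replicate 4.

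Of the genes that act on Rab proteins, 8 of 38 tested were called lower in dorDG_FT and none higher, where 16.1% of all genes tested were called lower and 12.4% higher (4 of 13 effectors, 1 of 12 exchange factors, 3 of 9 activating proteins, 0 of 4 of prenylation and GDP dissociation). The largest changes were those of Rims1 (−1.09 ± 0.37), Bicd1 (−0.94), an adaptor of Rab6 and dynein, Dennd1a (−0.69), an exchange factor, and Rabgap1 (−0.66), an activating protein. Rims1 was also called between reactions, higher in the second, and no gene of any kind was called with the replicate block or among ribosome-rich cells.

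**Figure D5:**
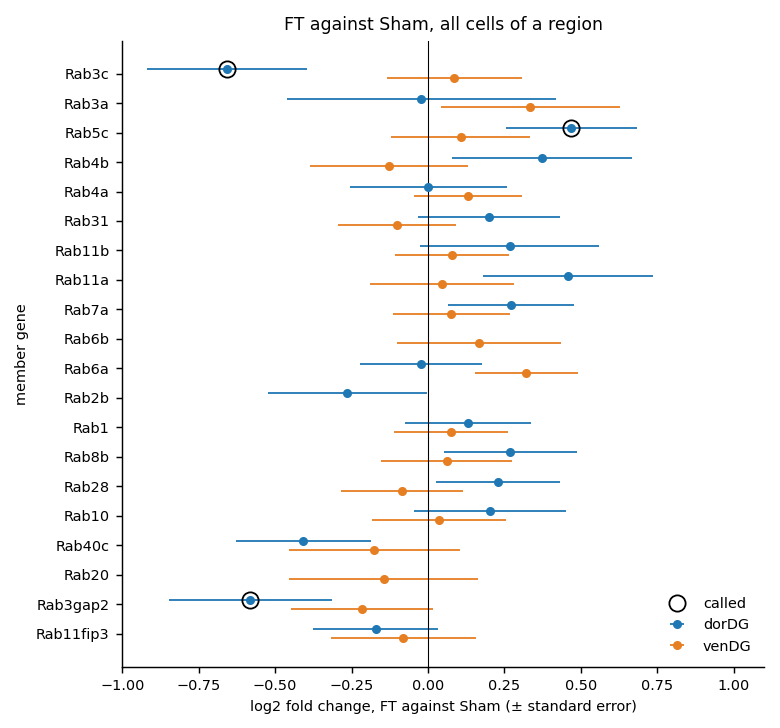
Log2 fold change between FT and Sham (± SE, edgeR) of each member tested over all cells, dorDG in blue and venDG in orange, with called members ringed. In dorDG, Rab3c (−0.66) and Rab3gap2 (−0.58) lie below 0 and Rab5c (0.47) above, and no venDG member was called.

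In venDG, 0 of 19 members tested were called by edgeR, as were 0.0% of 4079 genes, and none separated the groups, against 0.735% of genes. None had an unadjusted p under 0.05, against 5.79% of genes, and DESeq2 called no member and 18 genes. Rab3c changed by 0.09 ± 0.22, Rab3gap2 by −0.22 ± 0.23 and Rab5c by 0.11 ± 0.23. The difference between the FT effects of the regions was itself tested. None of 18 members was called (0.0% of 4161 genes), and 1 had an unadjusted p under 0.05, against 9.47% of genes. That member was Rab3c, at −0.79 ± 0.34 (unadjusted p = 0.0281, adjusted p = 0.522). DESeq2 called no member and 8 genes.

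Of the members tested between regions, which were 17 to 20 of the 64, none was called without the block. Among Sham replicates 0 of 20 members were called (0.0% of 4313 genes) none had an unadjusted p under 0.05, against 8.37% of genes, and none separated the regions, against 1.14% of genes. DESeq2 called no member there and 155 genes. With the replicate number as a block, which pairs the regions, no member was called and 2.43% of genes were. Among FT replicates 0 of 17 were called, against 0.275% of 3994 genes, 2 had an unadjusted p under 0.05 (7.44% of genes), and 1 of the 17 separated the regions (3.0% of genes). That member, Rab6b, stood at 0.48, 0.40, 0.29 and 0.45 in dorDG_FT and at 0.55, 0.83, 0.51, 0.53 and 0.73 in venDG_FT. Every dorDG value lay below every venDG value, and the change was −0.65 ± 0.23 (unadjusted p = 0.0147 in edgeR). With the replicate block it was −0.72 ± 0.21 and called (adjusted p = 0.161), as were 6.43% of genes. Without the filter on low values, 4 of 64 members separated the FT regions (Rab6b, Rab3b, Rab5b and Rab13), against 2.2% of genes, and Rab3b was called, against 0.258% of genes. Rab3b, a Rab3 protein of secretory vesicles, stood at 0.0168 to 0.0857 in dorDG_FT and 0.150 to 0.304 in venDG_FT, from 15 and 108 UMIs, a change of −1.97 ± 0.40 (adjusted p = 0.0660). The regional comparisons use the same replicates as the FT comparisons, so they are not independent of them.

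Within single types the family gave almost no FT call. Over 9 annotated dorDG types, 0 of 152 member tests were called in edgeR, against 0.686% of 33662 tests over all genes, 8 had an unadjusted p under 0.05 (6.09% of all) and 3 did not overlap between groups (4.28% of all). DESeq2 also called 0 of the member tests. Those 3 were Rab3gap2 in Microglia1, Rab34 in Mossy-annotated cells and Rab1 in Oligodend1 (−1.01 ± 0.45, adjusted p = 0.280). BergGlia, ExcitNeuron and InhibNeuron had too few replicates with 5 cells and were not tested.

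Over 7 venDG clusters, 1 of 125 member tests was called (1.45% of 26608 over all genes), 2 had an unadjusted p under 0.05 (6.55%) and 6 did not overlap (3.22%). The call was Rab11a in astrocyte-like cells. It stood at 0.837, 1.26, 1.37, 0.718 and 0.687 in venDG_FT and at 0.303, 0, 0 and 0.346 in venDG_Sham, from 44 and 5 UMIs. The groups did not overlap, and the change was 2.23 ± 0.72 (adjusted p = 0.119), in a class where 9.58% of genes were called. Ribosome-poor cells made up 37.1% ± 20.4 of these cells in venDG_FT (n = 5) and 61.5% ± 23.3 in venDG_Sham (n = 4). In astrocytes Rab11a was also lower in the second reactions, at 0.130 against 1.27, and the cluster result was not called among ribosome-rich cells, by DESeq2, with the replicate block or without the filter on low values. Leaving out venDG_FT replicate 2 or 3 or venDG_Sham replicate 1 left no member called in any cluster, while 2 were called without venDG_Sham replicate 4 and 5 without venDG_FT replicate 1.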

How the data were processed

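Single-cell 3′ RNA libraries (10x Genomics) were analysed from the deposited tables, one per region, of UMI counts per gene and cell. The authors made these counts with Cell Ranger against rat build rn5, and the methods give a cell filter on genes, UMIs and mitochondrial share, and clustering with Seurat 3. The depth per replicate stands in the report, and no doublet caller was run. From the counts, 3347 cells were used, and 170 venDG columns with an extra suffix were left out (of which 167 repeat a barcode of the same reaction). Replicates followed the labels, since the replicate numbers of the cell annotation differ from them. Replicates of a group differed beyond sampling noise (chi-square per degree of freedom 2.967 to 17.147 over 36 pairs).

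Counts were summed per replicate, or per replicate and cell type, and tested with edgeR 4.0.16 (TMM, quasi-likelihood F test, R 4.3.3) over all genes averaging 0.5 UMIs per 10000 or more, with DESeq2 1.42.0 as an alternative. Calls needed an adjusted p (Benjamini-Hochberg over all genes tested) of 0.2 or less and an absolute log2 fold change of 0.32 or more, the thresholds of the study. The edgeR fit was tried on simulated counts for FT against Sham in each region, for the regions among Sham replicates and for the reactions. Of genes altered 2-fold, 72.7% to 92.9% were called, as were 0.77% to 1.14% of unaltered genes. The simulation altered 200 genes and drew each gene independently, with no shift shared by the genes of a replicate. The real replicates differ in their share of ribosome-poor cells, so these rates need not hold for the calls reported here. The other fits, DESeq2 and the cluster naming were not simulated. Types needed 5 cells per replicate and 3 replicates per group. Ribosome-poor cells were those under 2% of UMIs from 122 cytosolic ribosomal protein genes. The venDG cells were clustered with scanpy 1.11.5 and Leiden (resolution 2, 30 components, 15 neighbours, 2000 variable genes), and a cluster was named from at least 3 markers. Same-numbered replicates of the regions deviated together (r 0.185 to 0.563 in Sham, 0.109 to 0.359 in FT), so the blocked values stand beside the regional results, with venDG_FT replicate 3 lacking a partner.

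Named members were, for levels, up to 3 per role with the highest dorDG_Sham mean and the synaptic and endosomal members at 0.5 or more, and for tests every called member, or the 5 highest and 5 lowest where over 10 were called, with up to 4 called genes of the pathway. Members, role lists and rules were chosen with earlier results of these data known. Of the 64 members, 62 matched a RefSeq symbol and 2 an older name. Alternatives were another tool, scaling or filter, leaving out replicates, the replicate block, ribosome-rich or ribosome-poor cells, and 1 cell per replicate. Scaling by total UMIs and the reaction comparison within classes were added after the data were seen. One marker value is not reported here.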

Additional observations from a re-analysis of the deposited data

Results flagged for a closer look

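Replicates standing apart within their group were sought with Dixon's test in 70 combinations. These were each named member, the synaptic sum and the endosomal sum by group, and Rab11a in astrocyte-like cells by treatment. Chance alone would set apart about 1 in 20, and 5 were found. Rab3gap2 was at 1.88 UMIs per 10000 in dorDG_Sham replicate 3, with the other replicates at 0.740 to 1.05, and at 1.36 in venDG_Sham replicate 3, with the others at 0.609 to 0.752. Sham replicate 3 also held the highest share of ribosome-poor cells in each region, at 71.0% and 61.9%. Rab11a was at 1.05 in venDG_FT replicate 4 (others 0.862 to 0.899), Rab11b at 0.609 in venDG_Sham replicate 5 (others 0.767 to 0.818), and Rab11fip3 at 0.645 in dorDG_FT replicate 1 (others 0.474 to 0.487).

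The 170 venDG columns left out of every comparison held the members at 29.5 UMIs per 10000 (869 of 294323 UMIs), against 28.2 in the venDG cells used.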

How the results depend on the processing

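The dorDG count of 3 called members under FT became 0 with no filter, with the replicate block and in ribosome-rich or ribosome-poor cells, 4 with DESeq2 and 2 with total UMIs, and it ran from 0 to 6 with a replicate left out. Over all genes, 1221 calls became 1849 (DESeq2), 207 (no filter), 0 (replicate block), 0 (ribosome-rich), 58 (ribosome-poor) and 0 to 2022 with a replicate left out. Of same-numbered FT and Sham replicates, 2 of 4 pairs in dorDG and 4 of 5 in venDG had r over 0.1 (−0.225 to 0.371 and −0.155 to 0.269), so they were taken to share only a number. Between FT regions, no called member became 1 with no filter and 1 with the replicate block, and 11 genes became 148 (DESeq2), 49 (no filter), 0 (total UMIs), 257 (replicate block), 0 (ribosome-rich) and 20 (ribosome-poor). Sham regions gave 0 members throughout, while 0 genes became 155, 61, 29, 105 (replicate block), 137 (ribosome-poor) and 0 to 200. In venDG, 0 genes under FT became 18 with DESeq2 and 3 with no filter. The interaction gave 0 to 1 members (1 without dorDG_Sham replicate 2), and 0 genes became 8 (DESeq2), 1 (ribosome-poor) and 0 to 335. Between reactions, 15 members became 39 and 3684 genes 9724 with no filter. In dorDG types, 231 gene calls became 33 (DESeq2), 105 (no filter), 0 (ribosome-rich) and 4 to 578. In venDG clusters the 1 called member became 0 with DESeq2, no filter, the replicate block and ribosome-rich cells and ran from 0 to 5 (5 without venDG_FT replicate 1), and 386 gene calls became 16, 158, 8 (ribosome-rich) and 5 to 1594. Of levels, the 9 members highest in neurons became 0 in ribosome-poor cells and 7 to 10 with a replicate left out, and the ratio difference of 1.47 became 0.16 in ribosome-poor cells. Fitted directions reversed for Rab5c under FT in ribosome-rich cells (−0.0046), and between reactions for Rab10 (0.29) and Rab11b (0.19) in endothelial cells, Rab3c in oligodendrocytes (−0.58, against mean levels that rose), Rab6b in neurons (−0.80) and Rab8b in astrocytes (1.16). The causes were not tested.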
